A study of Homo sapiens with 2 samples.

Results

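Peaks of TET1 were examined at 10 genes that encode T-box transcription factors of mesoderm and heart: T, EOMES, TBX6, TBX1, TBX20, TBX18, TBX2, TBX3, TBX4 and TBX5. A peak was counted for a gene when it overlapped the gene span on hg19 widened by 20 kb on each side. This gave 55 peaks out of the 46208 of the deposited list. No peak fell into more than 1 widened span. The rule uses gene positions and no score or width, but the genes were chosen with earlier results of these data known. The spans are known to the nearest kb.

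The material was a V5 ChIP for TET1 in cardiac progenitors made from H1, an established human embryonic stem cell line whose own TET1 gene carries a V5 tag. There was 1 ChIP library and 1 input library, both taken on day 7 of the same differentiation, in which 6 µM CHIR99021 (a WNT activator) was removed on day 2 and 5 µM IWP2 (a WNT inhibitor) was given from day 3 to day 5. The labels enter both libraries as wild type, give no number of clones, and list no V5 ChIP of untagged cells. What the antibody precipitates apart from tagged TET1 therefore cannot be told apart from it. A peak list holds no expression, so the cell type label could not be checked against expressed markers. Read depth is unknown for either library, and there are no replicates, so no spread can be given.

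T-box factors share a DNA-binding domain and act in sequence as mesoderm becomes heart. EOMES and T (also called TBXT or Brachyury) are switched on as cells leave pluripotency, TBX6 marks the paraxial mesoderm that follows, and TBX1, TBX5, TBX18 and TBX20 then pattern the heart fields and their derivatives. TBX2 and TBX3 are mainly repressors that keep parts of the heart from becoming chamber muscle. TET1 oxidises methylated cytosine, the first step of removing DNA methylation, and carries a domain that binds CpG-rich DNA.

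The stretches around the outermost annotated starts of 4 of these genes are shown because their start peaks span the range found at these gene starts. That range runs from broad to narrow and from the highest scores to the lowest. They are RefSeq promoter windows of GRCh38.p14, 250 bases before to 50 after the start, matched by gene symbol, and the capitals mark CpG dinucleotides. TBX20 lies at chr7:35254051-35254350 (minus strand), T at chr6:166168606-166168905 (minus), TBX1 at chr22:19756453-19756752 (plus) and TBX5 at chr12:114408393-114408692 (minus). These positions are on GRCh38.p14 and cannot be set against the hg19 positions of the peaks.
TBX20: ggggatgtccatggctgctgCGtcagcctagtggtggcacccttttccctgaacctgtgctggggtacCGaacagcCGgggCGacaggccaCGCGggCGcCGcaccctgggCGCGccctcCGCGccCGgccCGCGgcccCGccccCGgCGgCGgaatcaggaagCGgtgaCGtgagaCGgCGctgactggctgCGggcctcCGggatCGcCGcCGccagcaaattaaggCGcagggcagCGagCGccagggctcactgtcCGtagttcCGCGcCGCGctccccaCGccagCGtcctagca
T: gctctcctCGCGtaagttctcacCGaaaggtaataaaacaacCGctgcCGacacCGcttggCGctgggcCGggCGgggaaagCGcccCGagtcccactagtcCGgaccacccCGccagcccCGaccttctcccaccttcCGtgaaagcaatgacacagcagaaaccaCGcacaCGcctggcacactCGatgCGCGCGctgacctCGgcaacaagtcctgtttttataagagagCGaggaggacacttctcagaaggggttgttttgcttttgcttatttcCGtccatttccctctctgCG
TBX1: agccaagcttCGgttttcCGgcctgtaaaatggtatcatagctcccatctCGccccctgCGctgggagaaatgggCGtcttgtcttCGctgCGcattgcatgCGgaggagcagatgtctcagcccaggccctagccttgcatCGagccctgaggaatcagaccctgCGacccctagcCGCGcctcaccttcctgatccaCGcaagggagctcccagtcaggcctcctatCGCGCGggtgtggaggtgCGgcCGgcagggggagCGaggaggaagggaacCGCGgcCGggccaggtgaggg
TBX5: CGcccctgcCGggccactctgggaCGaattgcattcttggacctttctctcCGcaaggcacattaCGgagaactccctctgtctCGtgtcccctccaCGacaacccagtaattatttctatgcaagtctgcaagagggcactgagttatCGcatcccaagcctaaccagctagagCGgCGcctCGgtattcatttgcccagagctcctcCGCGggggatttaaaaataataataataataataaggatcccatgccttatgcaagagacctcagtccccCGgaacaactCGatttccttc
Of the 10 genes, 8 had an entry in the promoter table; TBX2 and TBX3 had none. TBX20 had 38 CpG and TBX6 had 35, against a median of 14 (quartiles 4 and 28) over all 35116 windows of the table. The outermost T window had 25 CpG, TBX1 had 22, EOMES and TBX18 had 21 each, TBX4 had 18 and the outermost TBX5 window had 15. The windows of EOMES and TBX4 belong to starts 390 and 4066 bp inside the outer end of the gene in the GRCh38.p14 table. All of these lay above the table's median, TBX5 by the least. The T-box element AGGTGTGA, searched on both strands, was in 0 of the 10 windows of the 8 genes and in 0.98% of all windows. That says only that these letters are not in these windows.

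Peaks lay at the start of every gene. All 10 loci had exactly 1 peak within 1 kb of the gene start, and in 9 it covered the start as the span gives it. At TBX5 the peak began 146 bp upstream, which is less than the precision of the span. Over the genome at large, 7.01% of consecutive 2 kb tiles were touched by a peak. These tiles are not gene starts, and the starts of other genes on hg19 were not used here, so a peak at the start is not shown to be particular to T-box genes. Most loci, 8 or 9 of 10, were covered at each step of 0.5 kb from 1.5 kb upstream to 2 kb downstream of the start. Away from it the cover was lower but uneven. Upstream, 5 of 10 were covered at 3 kb, 2 at 10 kb, 0 at 15 kb and 3 at 16 kb. Downstream, 6 of 10 were covered at 3 kb, 2 at 6 kb, 6 at 9 kb, 1 at 14 kb and 5 at 16.5 kb.

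**Figure D1:**
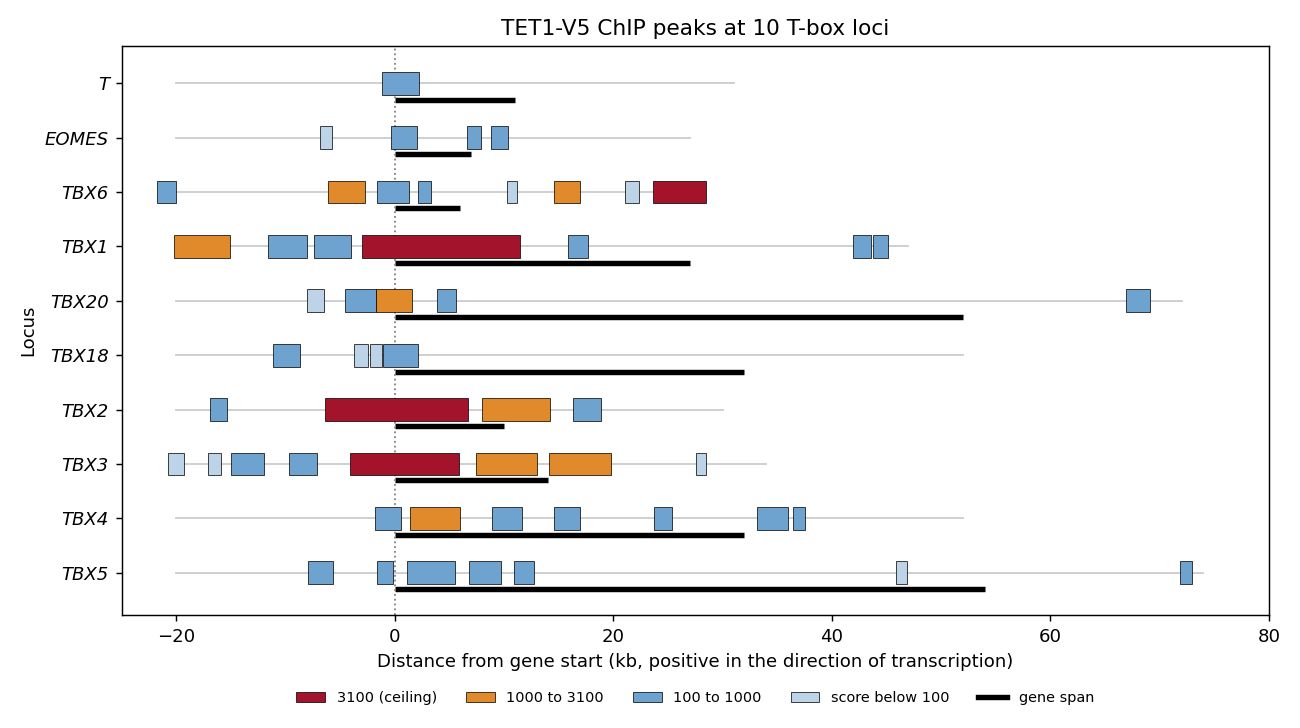
Peaks at the 10 T-box loci, drawn as boxes by distance from the gene start (kb), with the score class as colour, the gene span as a black bar and the widened span as a grey line. TBX1, TBX2 and TBX3 have a box at the score ceiling over the start, while the ceiling box of TBX6 lies downstream of the gene.

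**Figure D2:**
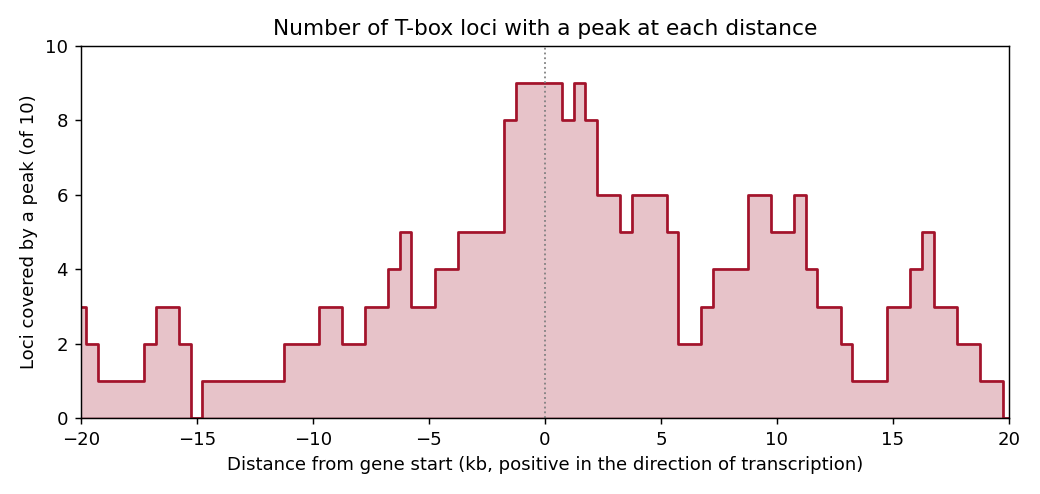
Number of loci, of 10, with a peak at each distance from the gene start, in steps of 500 bp, with distance in kb on the x axis. The count is 9 at the start, and farther out it lies between 0 and 6 with no steady course.

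The 55 peaks were crowded and wide compared with the rest of the list. The widened spans held 85.3 peaks per Mb (95% Poisson interval 64.2 to 111), against 18.9 per Mb in the rest of the mapped genome, a 4.50-fold difference (3.39 to 5.86). Peaks covered 24.9% of the bases of the T-box windows and 3.68% of the rest. Median width was 2333 bp at the T-box loci (quartiles 1501 and 3313.5 bp) and 1530 bp in the rest of the list (1089 and 2359 bp). The rest of the genome includes long stretches without genes, and windows of other genes were not set beside these. All intervals cover counting error only and treat neighbouring peaks as independent, which they are not.

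The peak score, a value taken from the authors' list, was also higher by its median, which was 342.9 at the T-box loci (quartiles 127.58 and 794.78) and 172.18 in the rest (82.41 and 658.88). A score of 3100 or more is called the ceiling here, because many peaks are tied there. The ceiling was reached by 4 of the 55 T-box peaks, 7.27% (Wilson interval 2.86% to 17.3%), and by 4.69% of the whole list, which lies inside that interval. Scores of 1000 or more were held by 12 T-box peaks, 21.8% (12.9% to 34.4%), against 18.6% of the list, again inside the interval. Scores below 100 were held by 10, 18.2% (10.2% to 30.3%), against 32.9% of the list, which lies above the interval. A width of 5 kb or more was held by 7 of 55, 12.7% (6.30% to 24.02%), against 3.2% of the list, which lies below the interval. These 7 lay at only 3 loci, TBX1, TBX2 and TBX3. That holds for peaks as called: with peaks up to 1 kb apart joined, TBX4, TBX20 and TBX18 also had a stretch of 5 kb or more. Of the list, 0.29% were 10 kb or wider, and 2 of the T-box peaks were. The Wilson intervals also treat clustered peaks of 1 library as independent, so a list value outside an interval is no test.

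**Figure D3:**
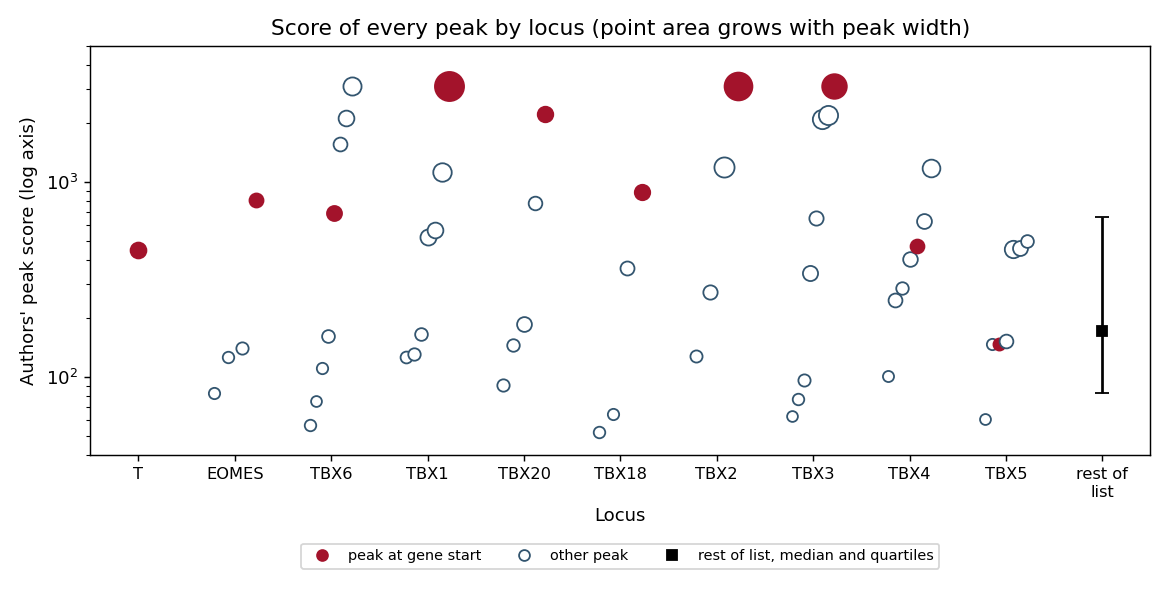
Score of each of the 55 peaks by locus on a log axis, with peaks at the gene start filled, point area growing with width, and the median and quartiles of the rest of the list at the right. The 10 start peaks run from 147.26 at TBX5 to 3100 at TBX1, TBX2 and TBX3.

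Among the early mesoderm genes, T had a single peak and EOMES a compact group, while the peaks around TBX6 were many. T, the notochord and primitive streak factor, lies on chromosome 6 from 166571 to 166582 kb on the minus strand. Its only peak (chr6:166579742-166583171, 3430 bp, score 447.51) reached from 1.17 kb upstream of the start to 2.26 kb inside the gene. It was wider than 90.2% of the list and scored higher than 69.0%. The T window was the least covered of the 10 (6.73%). Of consecutive genome tiles of the same length, 44% held as many peaks or more and 16.4% were covered as far. The peak number at T was thus near that of the genome at large, and the nearest peaks outside the window lay 6.19 kb beyond its upstream edge (score 64.27) and 110 kb beyond its downstream edge. In the GRCh38.p14 gene table the RNA gene LNCDAT spans the start of T, so the peak cannot be assigned to either gene alone.

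EOMES, which drives the exit from pluripotency to mesendoderm, lies on chromosome 3 from 27757 to 27764 kb on the minus strand and had 4 peaks. The strongest (chr3:27761936-27764360, 2425 bp, score 811.29) covered the start and ran 2.07 kb into the gene, but only 0.36 kb upstream. The other 3 were weak, with scores of 83.32 (5.74 kb upstream of the start), 126.07 (over the far end of the gene) and 141.73 (just past it). The last 2 were 980 bp apart. Peaks covered 34.9% of the short EOMES gene and 13.5% of its window, and 7.25% of tiles of that length held as many peaks or more, and 7.24% were covered as far.

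TBX6, needed for paraxial mesoderm, lies on chromosome 16 from 30097 to 30103 kb on the minus strand, and its window held 8 peaks. Its start peak (chr16:30101709-30104662, 2954 bp, score 698.07) was not the strongest of them. Higher scores stood at 2135.65 (chr16:30105719-30109090, 2.72 kb upstream of the start), at 1561.02 (chr16:30086081-30088413) and at the ceiling (chr16:30074544-30079387, 4844 bp). In the GRCh38.p14 gene table, YPEL3 lies next to TBX6 on the upstream side, and PPP4C and ALDOA on the downstream side, all within 20 kb. Peaks in this window may thus sit at other genes, which could not be told apart without hg19 annotation. The ceiling peak lay 17.6 kb beyond the end of TBX6, and a widening of 10 kb left it out. The window was covered to 31.4%, which 1.7% of tiles of that length reached, and 1.2% held 8 peaks or more.

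TBX1, a factor of the pharyngeal region and second heart field whose loss underlies much of DiGeorge syndrome, had the widest peak of all. The gene lies on chromosome 22 from 19744 to 19771 kb on the plus strand. The peak (chr22:19741045-19755433) was 14389 bp wide, stood at the ceiling, and reached from 2.96 kb upstream of the start to 11.4 kb inside the gene. It was wider than 99.9% of the list. Upstream of it followed 3 more peaks, with scores of 565 (3367 bp), 526.14 (3551 bp) and 1129.98 (5083 bp), so that 73.8% of the 20 kb upstream of TBX1 was covered. That was the highest upstream cover of the 10 loci. The far part of the gene and its downstream side were weaker, with scores of 165.66, 130.74 and 126.17. In the GRCh38.p14 table GNB1L overlaps the far end of TBX1, and the downstream peaks may belong to it. In all, 46.2% of the TBX1 window was covered, a cover reached by 0.417% of tiles of the same length, of which 4.24% held as many as its 7 peaks or more.

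TBX20, a factor of heart muscle and valves, had the narrowest of the 4 start peaks that scored 1000 or more. It lies on chromosome 7 from 35242 to 35294 kb on the minus strand, and its start peak (chr7:35292460-35295719) was 3260 bp wide with a score of 2234.88, higher than 92.1% of the list. It was still wider than 88.8% of the list, and reached 1.72 kb upstream and 1.54 kb into the gene. The next peak began 31 bp farther upstream (2832 bp, score 186.15), so both form nearly 1 stretch. Beyond these, TBX20 had a peak of score 91.04 farther upstream, one of 146.05 at 4.74 kb inside the gene and one of 778.27 downstream (chr7:35224910-35227126). Between the last and the peak inside the gene lay 61292 bp without a peak, which takes in nearly the whole gene. Peaks covered 6.21% of the TBX20 gene and 30.8% of the 20 kb upstream. Its 5 peaks were matched or passed by 11.5% of tiles of that length, and its cover of 12.6% by 7.53%.

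TBX18, a factor of the epicardium and the sinus node, had peaks at the start and upstream of it only. It lies on chromosome 6 from 85442 to 85474 kb on the minus strand. Its start peak (chr6:85471910-85475099, 3190 bp, score 889.47) reached from 1.10 kb upstream to 2.09 kb into the gene. Weak peaks of 64.38 and 52.31 followed upstream with gaps of 52 and 135 bp, and a peak of 362.44 stood 8.69 kb upstream of the start. In the GRCh38.p14 table the RNA gene LOC124901353 spans the start of TBX18, with the same limit. The rest of the TBX18 gene and its downstream side held no peak, so 6.53% of the gene and 29.5% of the 20 kb upstream were covered. Of tiles of that length, 11.8% held as many as its 4 peaks or more, and 9.01% reached its cover of 11.1%. At TBX20 and TBX18 upstream cover was therefore higher than gene cover. The same order held at TBX1 and, by 18.8% to 18.6%, at TBX5, and the opposite at the other 6 loci.

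**Figure D4:**
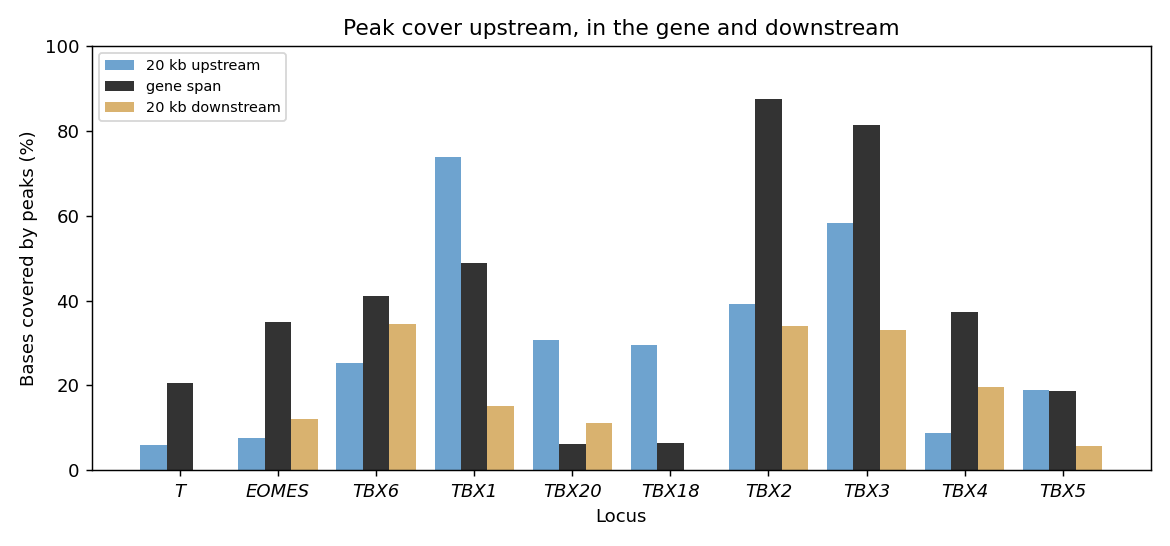
Percent of bases covered by peaks in the 20 kb upstream, the gene span and the 20 kb downstream of each T-box gene. The black bars of TBX2 and TBX3 stand above 80%, and TBX20 and TBX18 have low black bars beside higher upstream bars.

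TBX2 and TBX3, the repressor pair of the atrioventricular canal and conduction tissue, were the most fully covered genes. TBX2 lies on chromosome 17 from 59477 to 59487 kb on the plus strand, and TBX3 on chromosome 12 from 115108 to 115122 kb on the minus strand. Peaks covered 87.4% of the TBX2 gene and 81.5% of the TBX3 gene, and no other locus passed 50%. TBX1 came next with 48.9%, in a gene of 27 kb against 10 kb for TBX2 and 14 kb for TBX3. The shorter genes EOMES and TBX6 had 34.9% and 41.2%. These are shares of each gene span, which differ in length. The start peak of TBX2 (chr17:59470648-59483719, 13072 bp) reached from 6.35 kb upstream to 6.72 kb inside. That of TBX3 (chr12:115116156-115126105, 9950 bp) reached from 4.11 kb upstream to 5.85 kb inside. Both stood at the ceiling. In the GRCh38.p14 table TBX3-AS1 spans the start of TBX3, and TBX2-AS1 and BCAS3 lie upstream of TBX2 within 20 kb, so the cover cannot be assigned to TBX2 and TBX3 alone.

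A second wide peak followed in the far part of each of these genes. At TBX2 it was 6246 bp wide with a score of 1195.81, began 1258 bp after the start peak and ran over the end of the gene. At TBX3 it was 5558 bp wide with a score of 2202.74 and lay inside the gene. Another of 5663 bp and 2118.85 followed after a gap of 1080 bp, in which the TBX3 gene ends. The other peaks of TBX2 scored 129 and 271.74. Those of TBX3 ran from 63.24 to 651.99, and 4 of its 8 peaks lay upstream, out to the edge of the window. Cover reached 46.8% of the TBX2 window and 54.9% of the TBX3 window, which 0.5% and 0.238% of tiles of the matching lengths reached. The peak number itself was less unusual at TBX2, where 7.77% of tiles had as many as its 4 peaks or more, than at TBX3, where 1.81% had 8 or more.

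TBX4 and TBX5 differed from TBX2 and TBX3 although each is linked to a member of that pair: TBX2 with TBX4 on chromosome 17 and TBX3 with TBX5 on chromosome 12. The arrangement is known to descend from the duplication of an older gene pair. TBX4, a factor of hindlimb and lung mesenchyme, lies from 59530 to 59562 kb on the plus strand. TBX5, the factor of the first heart field and forelimb whose mutation causes Holt-Oram syndrome, lies from 114792 to 114846 kb on the minus strand. Each had 7 peaks, none at the ceiling and none as wide as 5 kb. As called, the strongest and widest peaks of both lay inside the gene, whereas those of TBX2 and TBX3 lay over the start. For TBX4 this rests on taking the outer end of the span as the start. The only TBX4 start in the GRCh38.p14 promoter table lies 4066 bp inside the gene's outer end. Its strongest peak runs from 1.36 to 5.94 kb inside, so it may cover that start, which was not checked on hg19. The contrast at TBX4 also rests on a gap of 777 bp between its start peak and its strongest peak. With peaks up to 1 kb apart joined, the 2 form a stretch of 7717 bp over the start.

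At TBX4 the start peak (chr17:59528225-59530587, 2363 bp) scored 467.93, and the strongest peak (chr17:59531365-59535941, 4577 bp, score 1179.02) lay from 1.36 to 5.94 kb inside the gene. In the GRCh38.p14 table the RNA gene LOC124904042 overlaps TBX4 inside the gene. Farther in, TBX4 had peaks of 403.22, 249.06 and 285.59, and past its end peaks of 631.68 and 100.74. Cover was 37.2% of the gene and 24.4% of the window, which 2.61% of tiles of that length reached, and 4.81% held 7 peaks or more.

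At TBX5 the start peak (chr12:114846147-114847643) was 1497 bp wide and scored 147.26, the narrowest and lowest start peak of the 10, with 45.7% of the list below it in score. The 3 peaks that follow inside the gene were close in score, at 456.43 (4365 bp), 460.94 (2904 bp) and 499.17 (1786 bp), and stood 1258, 1316 and 1256 bp apart, counted from the start peak inward. They ended 12.7 kb inside the gene. Then followed 33171 bp without a peak, a weak peak of 61.07, and 24958 bp more without a peak. In the GRCh38.p14 table the antisense RNA gene TBX5-AS1 spans the start of TBX5, so peaks there cannot be assigned to either gene alone. The TBX5 window was covered to 15.9%, a cover that 5.39% of tiles of that length reached, and 7.14% held 7 peaks or more.

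Set beside each other, the start peaks ran over a wide range of width. As called, start peaks were 14389 bp at TBX1, 13072 bp at TBX2 and 9950 bp at TBX3, and from 1497 to 3430 bp at the other 7. With peaks up to 1 kb apart joined, the start stretch was 7717 bp at TBX4, 6123 bp at TBX20, 5777 bp at TBX18 and 4975 bp at TBX6. TBX20, with 38 CpG in its promoter window, had a start peak of 3260 bp, and TBX1, with 22, one of 14389 bp. TBX2 and TBX3 had no such window, and whether CpG number goes with peak width was not tested. The highest score and the greatest width of a locus stood at the start in 7 of the 10 loci. The exceptions were TBX6, TBX4 and TBX5. The start here is the outer end of the gene span. At TBX4 the start in the promoter table, 4066 bp inside, lies at a distance that its strongest and widest peak spans. With peaks up to 1 kb apart joined, both stood over the start at TBX4 as well. The greatest width then moved to the start at TBX6 (4975 bp) and off it at EOMES (3778 bp). The 10 start peaks had a median width of 3225 bp and a median score of 850.38, and the 45 T-box peaks elsewhere 1797 bp and 186.15. No start peak scored below 100, whereas 10 of the 45 others did.

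The 4 loci with a ceiling peak were TBX6, TBX1, TBX2 and TBX3, and 5.71% of genome tiles of 64.5 kb, the mean window length, held one, where 49.8% held any peak. At TBX6 that peak lies off the gene, so 3 genes carried one at their start. A score of 1000 or more was present at 6 of 10 loci, against 18.9% of the same tiles. The 4 loci without were T, EOMES, TBX18 and TBX5. The tiles are not matched on genes and held a mean of 1.25 peaks, so these locus counts are not separate from peak number. Per peak, scores of 1000 or more made up 21.8% at the T-box loci and 18.6% of the list.

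At the edge of the rule, the outermost peak counted lay 19.996 kb from TBX6 (score 162.71), and the nearest peak left out lay 20.008 kb from TBX2 (score 69.98).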

How the data were processed

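The submitters' processing notes name BWA 0.7.17 and hg19. The authors deposited 1 peak list, called with MACS per the peak names in it, for which neither version nor settings are stated in the labels. The deposited score of a peak starts at 50, with 2030 peaks at exactly 3100 and 135 above. No header states its unit, and it was used only to describe and rank peaks. The labels' extraction text describes no immunoprecipitation.

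Widened spans came from the gene positions of the selection rule. The gene start is the outer end of the span on the gene's strand. The strand was taken from the RefSeq promoter table, and for TBX2 and TBX3 from general knowledge. At TBX4 the start in that table lies 4066 bp inside the gene's outer end and was not used as the start. The members were chosen with earlier results of these data known. All 10 genes are named; peaks described singly are those at a start, at the ceiling or widest in their locus, and others of each locus to complete it. Other T-box genes were not analysed here, since no hg19 annotation was used.

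Tiles are consecutive stretches of each window's length between the first and last peak of each chromosome, without peak-free intervals over 1 Mb, and are not matched on genes. Window assignment and tiles were tested on simulated peaks. With 1 library per group no test was run, and shares carry 95% Wilson intervals. Python 3.11.15, pandas 2.3.3, numpy 2.4.6, scipy 1.17.1 and matplotlib 3.10.9 were used. Alternatives were a score threshold, other widenings, joining of close peaks, assignment by midpoint, other distances from the start, and leaving out each locus. Positions are counted from 1.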

Additional observations from a re-analysis of the deposited data

How the results depend on the processing

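Keeping only peaks at or above the list's median score left 32 peaks, and no widening left 23; both remove peaks by construction. A widening of 50 kb lowered the cover to 15.8% and the density fold to 3.01, by adding flanks less dense in peaks than the 20 kb windows. Joining peaks up to 1 kb apart raised the share 5 kb or wider to 26.7%, and stretches of that width then also lay at TBX4, TBX20 and TBX18. At the median threshold 9 loci kept a start peak, TBX5 being lost, and with a widening of 10 kb or none 3 loci had a ceiling peak, TBX6 being lost. The 9 loci whose peak covers the start itself come from a setting chosen after seeing the data. Leaving out 1 locus at a time gave 47 to 54 peaks, a cover of 22.1% to 26.9%, density folds of 4.14 to 4.80, 5.88% to 8.33% at the ceiling and 8.51% to 14.9% at 5 kb or wider. The density fold stayed above 3 in every alternative run. No paired analysis was possible because there is a single library of each kind.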

Other observations

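Beyond the widened spans, the flanks from 20 to 50 kb held 16 more peaks, with a median score of 102.93 and none at the ceiling. TBX1 had 7 of these, up to a score of 1504.31, and TBX6 had 2 with scores of 1629.77 and 1721.79. TBX5 had 3, the strongest of 345.9, TBX2 had 2, and T and TBX3 had 1 each, all of the last 3 genes below 100. EOMES, TBX20, TBX18 and TBX4 had none.

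The intervals between the linked genes differed in length and cover. Between TBX2 and TBX4 lie 43 kb, of which 19.9% was covered, all within 20 kb of either gene, and the 3 kb between their windows held no peak. Between TBX5 and TBX3 lie 262 kb, of which 6.72% was covered. The 222 kb between the windows of that pair held 5 peaks, with scores from 54.56 to 345.9, which is 22.5 per Mb, against 18.9 per Mb in the rest of the mapped genome.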
